A study of Mus musculus with 6 samples.

Results

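The genes followed here encode 9 transcription factors of monocyte and macrophage fate, namely Spi1, Cebpa, Cebpb, Cebpd, Klf2, Klf4, Nr4a1, Mef2c and Maf. They are 9 of the 32285 features counted, were chosen by name with earlier results of these data known, and were each found under 1 symbol. Molecule counts (unique molecular identifiers, UMIs) came from 6 droplet single-cell RNA libraries of mouse lung leukocytes, 3 from normal lung (labelled Ctrl) and 3 from lung with infiltrating acute myeloid leukaemia cells (AML, a malignancy of blood-forming myeloid precursors). Lungs of both groups were perfused and enzymatically digested, and cells carrying the pan-leukocyte protein CD45 were enriched. The labels name no strain, sex, age, genotype or leukaemia model, and do not say which cells are leukaemic. Nor do they tie each of the 3 libraries of a group to an animal of its own, and p-values therefore measure only how much these libraries vary, which may be technical.

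PU.1, the product of Spi1, and C/EBPα, the product of Cebpa, are the factors that open the myeloid programme in precursors, and C/EBPβ and C/EBPδ take over in mature and activated myeloid cells. NR4A1 is an orphan nuclear receptor on which the patrolling, nonclassical monocyte depends, and its gene is also an immediate early gene that cell handling can induce. KLF4 and KLF2 are zinc finger factors, the former needed for monocyte formation and the latter known for the quiescence of lymphocytes and endothelium. MEF2C is a MADS-box factor of muscle, B cells and the monocyte lineage, and c-MAF, the product of Maf, is a bZIP factor of tissue macrophages.

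Cells were clustered without the 9 genes, and clusters were named from marker genes, which gave 5 myeloid classes. Classical monocyte-like cells numbered 310, 468 and 903 in normal lung 1, 2 and 3 and 193, 1401 and 5252 in AML lung 1, 2 and 3. Nonclassical monocyte-like cells numbered 363, 676 and 898 against 2258, 5010 and 4902, in the same order. Alveolar macrophage-like cells numbered 969, 1098 and 1749 against 259, 578 and 6444. Neutrophil-like cells numbered 491, 423 and 477 against 324, 670 and 1084. Interstitial macrophage-like cells were rare, with 20 and 53 cells in normal lung 2 and 3 and 51, 129 and 477 in the AML libraries, and normal lung 1 was left out of that class with 9 cells. In the clusters named for them, all 6 classical monocyte, 7 nonclassical monocyte, 8 alveolar macrophage and 8 neutrophil markers were raised, and 6 of 8 interstitial macrophage markers. AML lung 3 stood apart in depth, with a median of 1067 UMIs per barcode against 2740 to 9381 in the other 5 libraries, and 11.9% of its used cells lay in an unnamed cluster led by haemoglobin and neutrophil genes. The monocyte and alveolar macrophage classes also drew on different clusters in the groups. Cluster 14 held 86.6% of nonclassical monocyte-like cells of normal lung and 3.63% of those of AML lung, while clusters 0 and 2 held 53.7% and 42.7% of those of AML lung. Cluster 12 held 72.0% of classical monocyte-like cells of normal lung, and cluster 1 held 79.6% of those of AML lung, 5010 of 5446 of them from AML lung 3. Cluster 11 held 67.0% of alveolar macrophage-like cells of normal lung and 7.11% of those of AML lung. Cluster 6 held 3.46% and 43.8% of them, and levels in the alveolar class were not read within its clusters. Every library shared between 72 and 358 cell barcodes with another library.

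The upstream sequences of Mef2c, Klf2 and Nr4a1 are shown because the first changed in both monocyte classes, the second carries a MEF2 box, and the third is the gene most tied to the nonclassical fate. RefSeq promoter windows (GRCm38.p6, + strand, the 250 bases before a start, or up to the first annotated exon base for Klf2) matched 6 of the 9 genes, all but Spi1, Cebpd and Maf. Capitals mark GAGGAA, a core bound by PU.1, in the Mef2c window (chr13:83503784-83504033), the MEF2 consensus CTANNNNTAG in the Klf2 window (chr8:72318812-72319032), and TGCGTCA, a CRE-like element, in the Nr4a1 window (chr15:101266596-101266845), which lies inside the longer GENCODE gene model between its exons.
Mef2c: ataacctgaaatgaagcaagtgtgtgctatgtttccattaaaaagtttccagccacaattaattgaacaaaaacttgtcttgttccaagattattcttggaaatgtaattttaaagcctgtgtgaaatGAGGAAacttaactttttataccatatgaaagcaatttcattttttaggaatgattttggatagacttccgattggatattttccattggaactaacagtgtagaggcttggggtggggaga
Klf2: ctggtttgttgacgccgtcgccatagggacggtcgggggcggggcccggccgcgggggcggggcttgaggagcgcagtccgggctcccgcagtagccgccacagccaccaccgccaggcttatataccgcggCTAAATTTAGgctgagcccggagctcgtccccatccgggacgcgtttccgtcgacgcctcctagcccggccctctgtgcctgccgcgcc
Nr4a1: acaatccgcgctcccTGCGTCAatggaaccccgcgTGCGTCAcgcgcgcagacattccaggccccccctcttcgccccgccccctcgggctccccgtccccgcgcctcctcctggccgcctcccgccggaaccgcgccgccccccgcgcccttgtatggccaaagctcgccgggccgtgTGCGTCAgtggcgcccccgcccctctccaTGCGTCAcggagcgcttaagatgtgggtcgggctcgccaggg
Both strands of 32851 windows of 250 bases were searched for these motifs. The GAGGAA core stood 122 bases before this Mef2c start, and it also stood 186 bases before the next of 3 listed Mef2c starts. It occurred in 23.3% of all windows. The Klf2 MEF2 box began 118 bases before the start, and 3.20% of windows held one. In the Nr4a1 window TGCGTCA began 235, 215, 71 and 42 bases before the start, where 1.75% of windows held at least 1 copy and 1 window, that of Nr4a1, held 4 or more. None of these matches overlapped each other, and a C/EBP site written TTGCNNAA, present in 9.56% of windows, was found in no window of the 6 genes. These matches describe letters only, and counts of 3′ tags do not tell the Mef2c starts apart.

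All 9 genes passed the filter on low counts in every class, which made 45 comparisons of AML with normal lung over counts summed per library. Mef2c fell in both monocyte classes, and these were the 2 of 45 comparisons that passed an adjusted p of 0.05 over all genes (edgeR quasi-likelihood test, Benjamini-Hochberg). The background was 2.87% of 10573 genes called in classical monocyte-like cells and 7.31% of 10565 in nonclassical ones, with 1.29% and 3.25% called lower and 1.58% and 4.06% called higher. In alveolar macrophage-like cells 0 of 12157 genes were called (0%), although 1295 passed 0.05 before adjustment and 132 were called by DESeq2. In interstitial macrophage-like cells 0.216% of 7864 genes were called (0.0254% higher, 0.191% lower), and in neutrophil-like cells 1.05% of 6857 (0.846% higher, 0.204% lower). The libraries of the groups did not overlap in 18 of the 45 comparisons, 4 in classical monocyte-like, 4 in nonclassical monocyte-like, 3 in alveolar macrophage-like, 4 in interstitial macrophage-like and 3 in neutrophil-like cells, out of 9 each. Over all genes tested, the groups did not overlap for 27.7%, 30.6%, 17.1%, 34.9% and 22.7%, in that order of classes. The median log2 change of the 9 genes was -0.10, -0.13, 0.43, -0.25 and 0.43, beside medians of all genes no further from 0 than 0.03. Levels are given as CPM, counts scaled to a common total of UMIs in the summed class, on library sizes scaled by the trimmed mean of M-values unless called plain, and are compared within a gene only, since they are not per length.

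**Figure D1:**
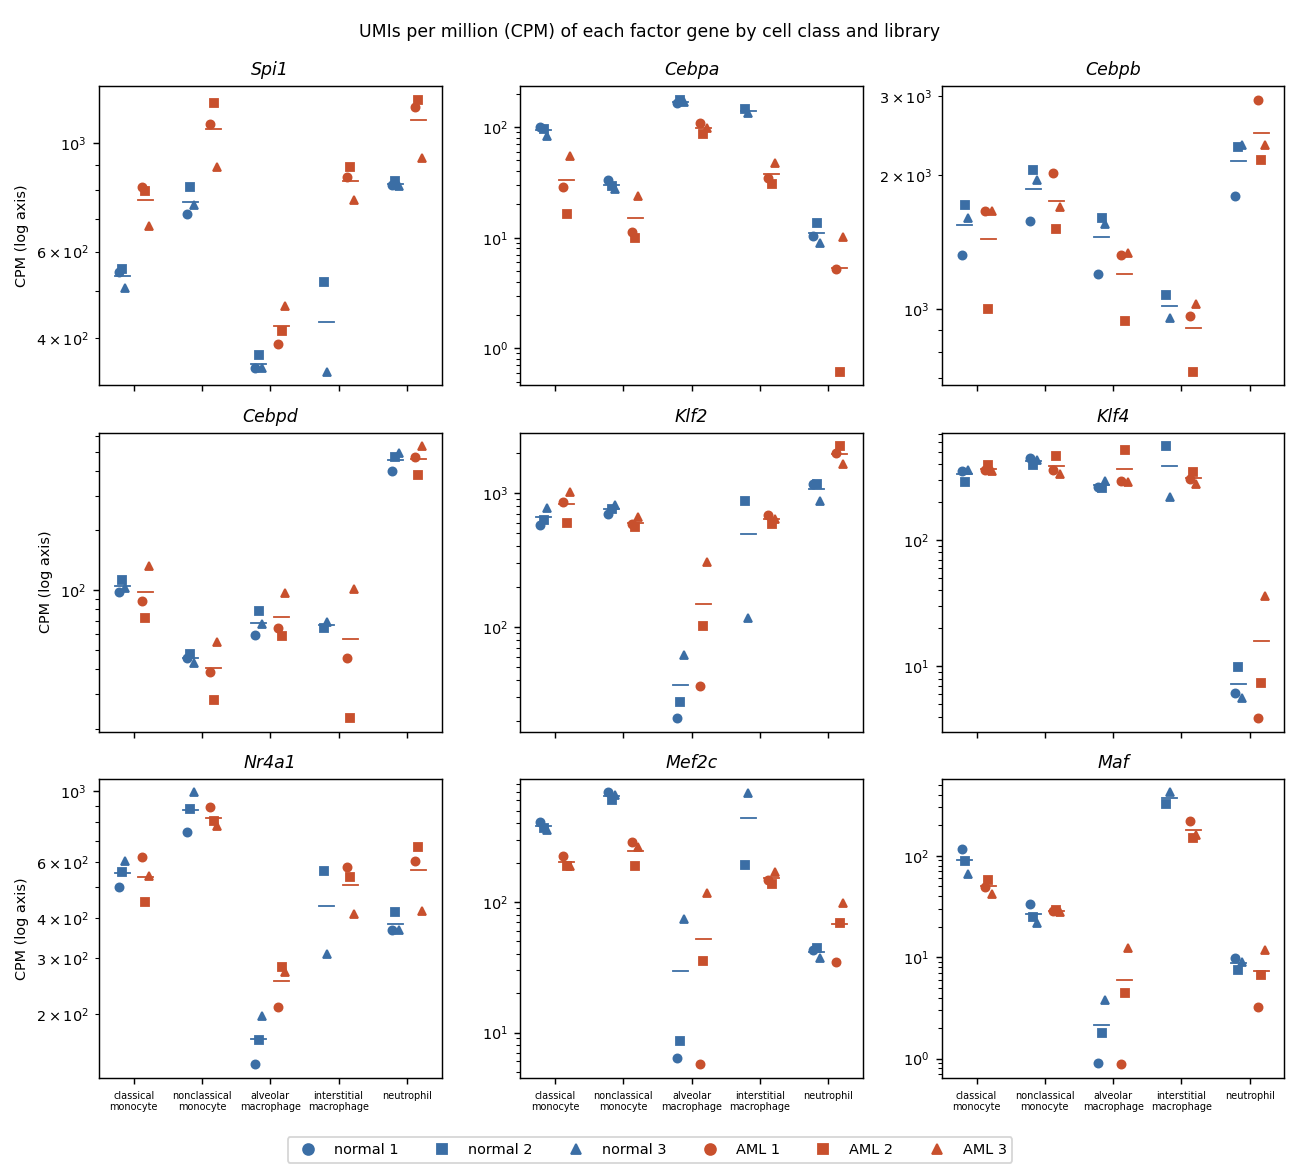
Levels of the 9 genes (CPM, log axis) in the 5 myeloid classes, with 1 point per library and a bar at the group mean. Spi1 points of AML libraries lie above all normal ones in every class, and Mef2c points of AML libraries lie below all normal ones in both monocyte classes and in interstitial macrophage-like cells.

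Spi1 (chr2:91082390-91115756, GENCODE vM21 on GRCm38, + strand), the gene of PU.1, stood higher in all 3 AML libraries than in any normal library in each of the 5 classes, and in none did the difference pass the test. Classical monocyte-like cells held 546, 553 and 506 CPM of it in normal lung 1, 2 and 3 and 813, 799 and 678 CPM in AML lung 1, 2 and 3. The groups did not overlap, and the log2 change was 0.51 (SE 0.12, n = 3 against 3, edgeR adjusted p = 0.0565). Nonclassical monocyte-like cells held 716, 812 and 746 CPM against 1093, 1208 and 895 CPM, again without overlap. The log2 change there was 0.49 (SE 0.14, edgeR adjusted p = 0.0727), and blocking on replicate number gave 0.48 (edgeR adjusted p = 0.0426). Without AML lung 3 the test passed in both monocyte classes, with edgeR adjusted p of 0.0181 and 0.0123. In cluster 14 alone the nonclassical difference was 0.29 (edgeR adjusted p = 0.469). The other 3 classes had differences of the same sign. Spi1 in alveolar macrophage-like cells went from 355 ± 13.1 (SD, n = 3) to 423 ± 39.3 CPM (SD, n = 3), a log2 difference of 0.25 (SE 0.10, adjusted p = 0.457 in edgeR). In neutrophil-like cells it went from 824 ± 10.6 to 1113 ± 159 CPM (SD, n = 3 each), a log2 difference of 0.43 (SE 0.15, adjusted p = 0.198 in edgeR). Late neutrophil precursor markers in neutrophil-like cells summed to 422 to 649 CPM in normal and 1136 to 1665 CPM in AML lung, with 1 of 3 tested called higher, and nonclassical monocyte markers to 119 to 143 against 170 to 356 CPM, with 1 of 4 tested called higher. Their part in the levels of Spi1, Klf2 and Nr4a1 in that class was not tested. In interstitial macrophage-like cells it stood at 520 and 341 CPM in normal lung 2 and 3 and at 853, 894 and 764 CPM in the AML libraries, a log2 difference of 0.96 (SE 0.27, adjusted p = 0.160 in edgeR). The classes share libraries, so the 5 directions are not independent of each other. Outside the myeloid classes, T cell-like cells held a plain CPM of Spi1 of 4.32, 6.50 and 61.5 in normal and 21.8, 148 and 356 in AML lung. B cell-like cells held 56.0, 60.0 and 72.7 against 71.1, 112 and 119, and in both the groups overlapped. The part of such a background in the myeloid levels of Spi1 was not tested.

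Cebpa (chr7:35119293-35121928, + strand, with a gene model on the other strand), the gene of C/EBPα, was lower in all AML libraries than in any normal library in 4 classes, and none of the 4 differences passed the test. Classical monocyte-like cells held 101, 96.5 and 83.7 CPM in normal lung and 28.6, 16.5 and 55.3 CPM in AML lung. The groups did not overlap, with AML lung 3 nearest to normal lung, and the log2 change was -1.49 (SE 0.35, edgeR adjusted p = 0.0548). It passed the test with DESeq2 (adjusted p = 0.000161), without AML lung 3 (edgeR adjusted p = 0.00286) and in cluster 12 alone, where the log2 change was -1.83 (edgeR adjusted p = 0.0123).

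Cebpa was less abundant in nonclassical monocyte-like cells and stood at 33.1, 29.6 and 27.5 CPM against 11.3, 9.96 and 24.1 CPM. The log2 change was -1.06 (SE 0.31, edgeR adjusted p = 0.0751), and blocking on replicate number it was -1.13 (edgeR adjusted p = 0.0384). Within the nonclassical clusters the groups overlapped. In cluster 14 Cebpa stood at a plain CPM of 34.7, 30.4 and 27.7 against 6.87, 16.1 and 41.8, and its log2 change there was -0.34 (edgeR adjusted p = 0.779). In cluster 0 it stood at 20.6 and 9.33 in normal lung 2 and 3 against 11.3, 9.91 and 14.5, and in cluster 2 at 0 and 29.2 against 13.6, 7.28 and 20.7, on 0 to 8 UMIs in several of these libraries. Alveolar macrophages, which need C/EBP factors to mature, had the highest plain CPM of Cebpa in both groups. There it stood at 164, 176 and 169 CPM against 108, 87.3 and 97.9 CPM, the groups lay far apart relative to their spread, and the log2 change was -0.80 (SE 0.10, 95% interval -1.04 to -0.55). Its unadjusted p of 0.000141 became 0.449 after adjustment in edgeR, in the class where no gene was called, against 6.68e-07 in DESeq2. The groups filled the clusters of the alveolar class unequally, and Cebpa was not read within those clusters. The interstitial class held Cebpa at 145 and 133 CPM against 34.6, 30.5 and 47.6 CPM, a log2 difference of -1.89 (SE 0.31, adjusted p = 0.0601 in edgeR). In neutrophil-like cells, where mature cells hold little of it, it stood at 10.5, 13.7 and 8.90 CPM against 5.18, 0.613 and 10.1 CPM, and the groups overlapped. Markers of immature myeloid cells, which also express Cebpa, moved the other way in classical monocyte-like cells, summing to 15.3 to 16.4 CPM in normal lung and 72.9 to 162 CPM in AML lung, with 2 of their 7 genes tested and both higher. Their part in the Cebpa levels was not tested.

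Cebpb and Cebpd, the C/EBP genes of mature and inflamed myeloid cells, overlapped between the groups in all 5 classes. Cebpb (chr2:167688915-167690418, + strand) stood at 1325, 1713 and 1602 CPM in classical monocyte-like cells of normal lung and at 1662, 1001 and 1655 CPM in AML lung. AML lung 2 was the low library there, and the log2 change was -0.10 with a 95% interval of -0.55 to 0.34. For the nonclassical class the interval ran from -0.46 to 0.28, in alveolar macrophage-like cells from -0.71 to 0.17, in interstitial macrophage-like cells from -0.71 to 0.38 and in neutrophil-like cells from -0.17 to 0.59. Cebpd (chr16:15887286-15891031, + strand) was highest in neutrophil-like cells, at a plain CPM of 456 ± 41.4 in normal and 446 ± 83.6 in AML lung (SD, n = 3 each). In the other classes its plain CPM ran from 22.2 to 128. Its 95% interval in neutrophil-like cells was -0.35 to 0.40 on the log2 scale.

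Klf2 (chr8:72319033-72321656, + strand) differed in direction between the classes, and none of its 5 comparisons passed the test. In nonclassical monocyte-like cells it stood at 697, 763 and 818 CPM in normal lung and at 591, 555 and 660 CPM in AML lung. All 3 AML libraries were below the normal ones, and the log2 change was -0.34 (SE 0.12, edgeR adjusted p = 0.139). In cluster 14 alone, an alternative added after the data were seen, the sign was the other one, at 0.28. The classical class held 582, 631 and 778 CPM against 859, 600 and 1022 CPM, overlapping, with a log2 difference of 0.32 (SE 0.20, adjusted p = 0.373 in edgeR).

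Neutrophil-like cells had the highest plain CPM of Klf2 in both groups. There it stood at 1173, 1175 and 877 CPM in normal lung and at 1983, 2244 and 1646 CPM in AML lung. Every AML library was above every normal one, and the log2 change was 0.86 (SE 0.18, edgeR adjusted p = 0.0538), with an adjusted p of 0.00057 in DESeq2 and 0.0127 in edgeR without AML lung 3. With the unnamed haemoglobin and neutrophil cluster counted in, the log2 change was 0.51 (edgeR adjusted p = 0.490). In this class haemoglobin genes and other erythroid markers summed to a plain CPM of 1.49, 21494 and 9519 in normal lung and 0, 0.583 and 3599 in AML lung, and their part in the Klf2 levels was not tested.

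In alveolar macrophage-like cells Klf2 was low and followed the library, at 20.8, 27.3 and 62.0 CPM in normal lung and 36.1, 101 and 308 CPM in AML lung. The summed plain CPM of 6 B cell markers in the same class stood at 5.32, 9.83 and 259 against 3.04, 84.8 and 255, and that of 6 T cell markers at 1.40, 3.32 and 31.1 against 0.869, 19.6 and 54.2. That of 8 neutrophil markers stood at 63.2, 60.8 and 285 against 73.9, 845 and 4683. Klf2 is a gene of resting lymphocytes, and it had its highest plain CPM among the myeloid classes in neutrophil-like cells. The libraries high in Klf2 were also high in the B cell, T cell and neutrophil markers, whose part was not tested. The log2 change was 2.04 with a 95% interval of 0.17 to 3.90 (edgeR adjusted p = 0.457). For interstitial macrophage-like cells the normal libraries stood at 874 and 117 CPM, on either side of the AML libraries at 691, 586 and 639 CPM.

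Klf4 (chr4:55527143-55532466, - strand), a factor of monocyte differentiation, overlapped between the groups in all 5 classes. Its plain CPM was highest in nonclassical monocyte-like cells, at 431 ± 32.5 in normal and 382 ± 67.9 in AML lung (SD, n = 3 each), and overlapped with that of the neighbouring class in both groups. The log2 change was -0.13 there (95% interval -0.46 to 0.19) and 0.14 in classical monocyte-like cells (95% interval -0.15 to 0.43). In neutrophil-like cells, which hold little Klf4, the means were 7.26 ± 2.36 and 15.9 ± 17.8 CPM (SD, n = 3 each).

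Nr4a1 (chr15:101254269-101274795, + strand), the factor on which nonclassical monocytes depend, overlapped between the groups in both monocyte classes. Nonclassical monocyte-like cells held 744, 879 and 992 CPM in normal lung and 893, 807 and 779 CPM in AML lung. The log2 change was -0.08, with a 95% interval of -0.39 to 0.24 (edgeR adjusted p = 0.775). Classical monocyte-like cells held 502, 559 and 606 CPM against 620, 450 and 541 CPM, a log2 change of -0.05 with a 95% interval of -0.38 to 0.28. The groups did not overlap in alveolar macrophage-like and neutrophil-like cells, where every AML library was higher. The alveolar class held Nr4a1 at 139, 166 and 198 CPM against 210, 281 and 270 CPM, a log2 difference of 0.60 (SE 0.17, adjusted p = 0.449 in edgeR). In neutrophil-like cells it stood at 367, 417 and 367 CPM against 604, 668 and 421 CPM, a log2 difference of 0.56 (SE 0.19, adjusted p = 0.175 in edgeR). Neither passed the test. Nr4a1 also answers to tissue digestion, so 15 genes of dissociation and immediate early response were read beside it. Their median log2 change in nonclassical monocyte-like cells was -0.52, with 0 higher and 1 lower of 15 tested, and in neutrophil-like cells 0.01, with 1 higher and 0 lower of 13 tested. In alveolar macrophage-like cells, where Nr4a1 was higher, it was 0.34, with 0 called of 15 tested, and the 7 nonclassical monocyte markers there summed to 57.0 to 89.2 CPM in normal and 81.9 to 583 CPM in AML lung. The part of either list in the Nr4a1 levels was not tested.

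Mef2c (chr13:83504034-83667080, + strand, up to 12 exons in 1 transcript) fell in nonclassical monocyte-like cells. It stood at 691, 602 and 660 CPM in normal lung 1, 2 and 3 and at 291, 188 and 262 CPM in AML lung 1, 2 and 3. The lowest normal library was above the highest AML library by a wide margin, and the log2 change was -1.40 (SE 0.17, 95% interval -1.78 to -1.02, edgeR adjusted p = 0.00335), a level in AML lung 0.379 times that in normal lung. Mef2c also fell in classical monocyte-like cells, from 411, 372 and 355 CPM to 226, 188 and 190 CPM, with no overlap. The log2 change was -0.92 (SE 0.13, 95% interval -1.20 to -0.63, edgeR adjusted p = 0.0130). That call was lost without normal lung 1 (edgeR adjusted p = 0.0802) or normal lung 2 (edgeR adjusted p = 0.0653).

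The fall was also read within clusters, on plain CPM, since the groups fill the clusters unequally. In cluster 14 of the nonclassical class Mef2c stood at 727, 616 and 659 in normal lung and at 482, 305 and 281 in AML lung. In cluster 2 it stood at 530 and 743 in normal lung 2 and 3 against 271, 227 and 262, and in cluster 0 at 343 and 326 in normal lung 2 and 3 against 280, 183 and 153. In cluster 12 of the classical class it stood at 413, 357 and 344 against 217, 188 and 190, and in cluster 1 at 648 and 401 in normal lung 2 and 3 against 226 and 183 in AML lung 2 and 3. AML libraries were thus lower in each of the 5 clusters, among libraries with at least 20 cells of the cluster. Within the normal libraries, cluster 0 stood below clusters 2 and 14. In cluster 14 alone, with 25 to 335 cells per AML library, the log2 change was -0.84 (edgeR adjusted p = 0.0609).

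**Figure D2:**
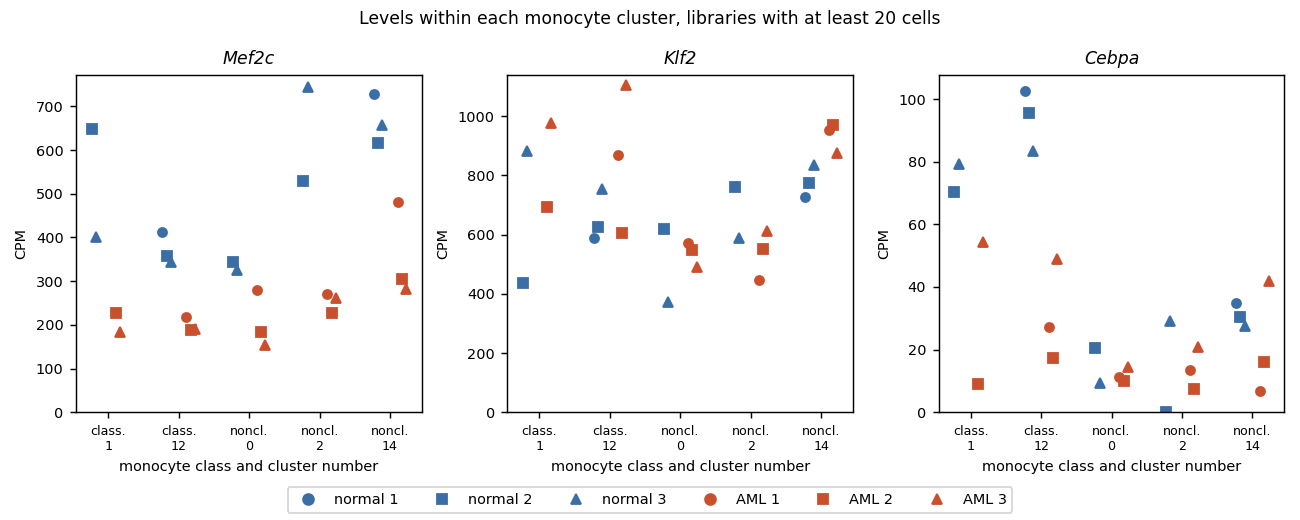
Plain CPM of Mef2c, Klf2 and Cebpa (linear axis) in each monocyte cluster, with 1 point per library that has at least 20 cells there. Mef2c points of AML lung lie below those of normal lung in all 5 clusters, as in cluster 14 (281 to 482 against 616 to 727), while Klf2 points of AML lung lie above those of normal lung in cluster 14.

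Shares of cells with at least 1 Mef2c UMI gave the same order once each cell was thinned to 1000 UMIs. In nonclassical monocyte-like cells they were 46.5%, 41.3% and 43.5% in normal lung and 21.3%, 15.4% and 19.7% in AML lung, and 2907 of 4902 cells of AML lung 3 were too shallow to enter. Unthinned shares were 91.5%, 86.5% and 75.5% against 69.0%, 43.5% and 21.1%, at median depths of 10015, 6614 and 4136 against 10104, 4991 and 885 UMIs. For classical monocyte-like cells the thinned shares were 26.3%, 31.9% and 27.9% against 17.1%, 15.4% and 16.1%. T cell-like cells, which should lack Mef2c, gave thinned shares of 0.315%, 0.639% and 5.28% in normal lung and 0%, 2.95% and 10.9% in AML lung, at median depths of 8398, 5065.5 and 3031 against 8082, 3012 and 1043 UMIs. The 0% is 0 of 449 cells, which allows a share of up to 0.668% from counting error alone. Monocyte shares were above the T cell share of the same library in all 6 libraries, with the narrowest gap in AML lung 3.

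B cells are among the other leukocytes with much Mef2c. In B cell-like cells its plain CPM ran from 2409 to 2684 in normal and 2196 to 2308 in AML lung. Its level in dendritic cell clusters was not read. The 6 B cell markers summed to 14.7 to 21.4 CPM in nonclassical monocyte-like cells of normal lung and 17.8 to 46.3 CPM in those of AML lung, where Mef2c was lower. The 6 markers of type 1 conventional dendritic cells summed to 369 to 406 CPM in normal and 230 to 239 CPM in AML lung in that class, with 1 of 2 tested called lower. Likewise, 5 markers of type 2 conventional dendritic cells in classical monocyte-like cells summed to 92.4 to 127 CPM in normal and 26.2 to 74.5 CPM in AML lung, with 1 of 3 tested called lower. The type 1 markers in classical monocyte-like cells summed to 340 to 354 against 264 to 322 CPM, with 0 of 3 tested called. The type 2 markers in nonclassical ones summed to 3.06 to 4.84 against 0.870 to 4.78 CPM, overlapping. The type 1 markers also summed to 624 to 641 CPM in alveolar macrophage-like cells of normal lung. The part of dendritic cell markers in the fall of Mef2c was not tested.

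In the myeloid classes other than monocytes Mef2c was either low or variable. In interstitial macrophage-like cells it stood at 193 and 688 CPM in the normal libraries and at 148, 137 and 170 CPM in the AML libraries. The groups did not overlap, the normal libraries differed widely from each other, and the log2 change was -1.54 (SE 0.43, edgeR adjusted p = 0.163). In that class the 6 B cell markers summed to a plain CPM of 10.4 and 561 in normal lung 2 and 3. In the AML libraries they summed to 19.2, 94.25 and 141, and their part in the Mef2c levels was not tested. In alveolar macrophage-like cells Mef2c stood at 6.43, 8.64 and 73.5 CPM against 5.69, 35.6 and 116 CPM, so that the libraries high in B and T cell markers were the high ones in both groups. The log2 change of 0.88 turned to -0.56 without AML lung 3. In neutrophil-like cells it stood at 42.9, 44.2 and 37.2 CPM against 35.0, 69.3 and 98.9 CPM, overlapping, and B cell markers there summed to a plain CPM of 5.97, 12.3 and 16.9 against 8.66, 17.5 and 201.

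Maf (chr8:115682942-115707794, - strand), whose product c-MAF marks resident macrophages, was lower in AML lung in classical monocyte-like and interstitial macrophage-like cells, without passing the test. In classical monocyte-like cells it stood at 115, 88.7 and 66.3 CPM in normal lung and at 49.6, 58.2 and 42.4 CPM in AML lung. No library of one group overlapped the other, and the log2 change was -0.84 (SE 0.20, edgeR adjusted p = 0.0589). In interstitial macrophage-like cells it stood at 327 and 421 CPM against 220, 151 and 162 CPM, a log2 difference of -1.07 (SE 0.28, adjusted p = 0.133 in edgeR). The markers of this small class moved as well. Its 8 interstitial macrophage markers summed to 5697 to 5779 CPM in normal and 1882 to 4539 CPM in AML lung, with a median log2 change of -1.15, and the 7 nonclassical monocyte markers summed to 725 to 1517 against 1386 to 2428 CPM, with a median of 1.37. None of either list was called in edgeR, and their part in the Maf, Cebpa, Mef2c and Spi1 levels of this class was not tested. The nonclassical class held Maf at 33.6, 24.8 and 21.6 CPM against 28.5, 29.5 and 27.9 CPM, overlapping, with a 95% interval of -0.29 to 0.50 on the log2 scale. In cluster 14 alone the log2 change of Maf was -0.62. Its plain CPM there was 35.0, 25.2 and 20.4 against 8.02, 24.1 and 24.4, overlapping, on 7, 3 and 21 UMIs in AML lung. In alveolar macrophage-like cells, which renew themselves and hold little Maf, it stood at 0.896, 1.78 and 3.78 CPM against 0.876, 4.45 and 12.4 CPM. In neutrophil-like cells it stood at 9.74, 7.48 and 8.90 CPM against 3.24, 6.74 and 11.8 CPM.

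**Figure D3:**
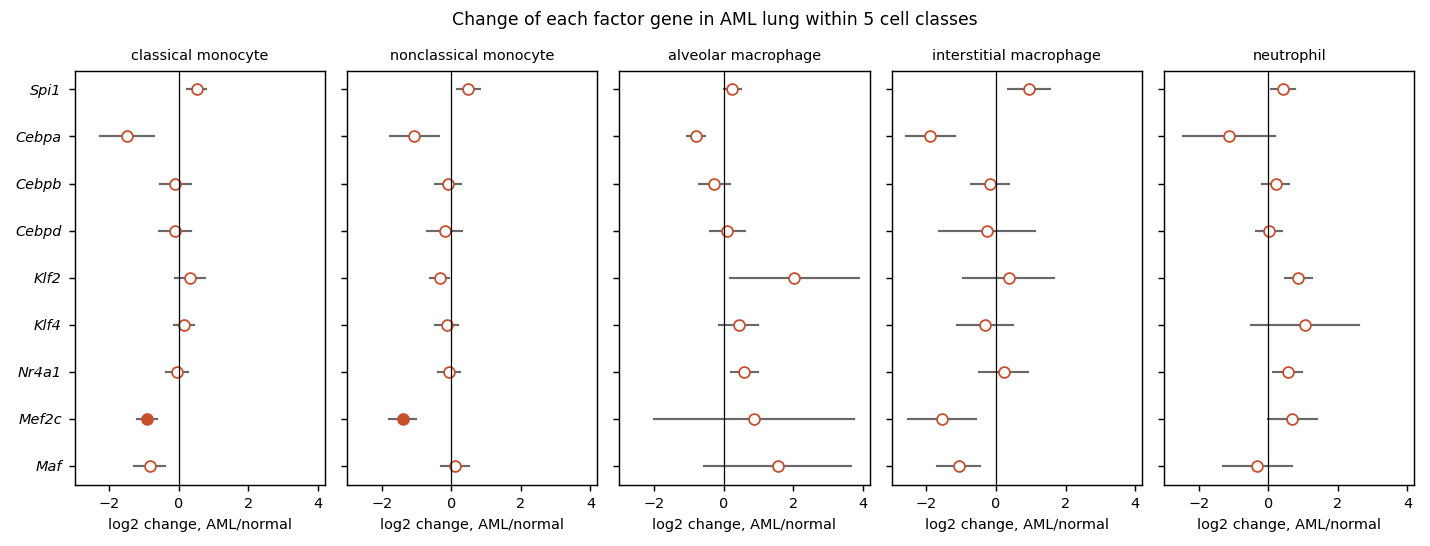
Log2 change of each gene, AML against normal lung, in each class, with its 95% interval, filled where the adjusted p passed 0.05. The filled points are Mef2c in nonclassical (-1.40) and classical (-0.92) monocyte-like cells, and the intervals of Klf2 and Mef2c in alveolar macrophage-like cells are among the widest.

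Whether AML lung differed from normal lung by the same amount in nonclassical as in classical monocyte-like cells was tested with a class-by-group term, with the library as a block. Klf2, Mef2c and Maf passed this test, where 4.8% of 11159 genes were called. For Mef2c the AML effect was lower in nonclassical cells by a difference of -0.49 (SE 0.12, edgeR adjusted p = 0.0425). For Klf2 the difference was -0.61 (SE 0.13, edgeR adjusted p = 0.0210), and for Maf it was 0.95 (SE 0.14, edgeR adjusted p = 0.00332). At a finer clustering resolution all 3 calls were lost. The Klf2 difference was -0.53 there, near its size above (edgeR adjusted p = 0.0843), while those of Mef2c (-0.30, edgeR adjusted p = 0.222) and Maf (0.53, edgeR adjusted p = 0.289) were smaller. The Mef2c call was also lost without any 1 library other than AML lung 3 (edgeR adjusted p = 0.0515 to 0.165), and the Klf2 call without normal lung 1 (0.0879) or 2 (0.110). The Cebpa difference of 0.59 had an adjusted p of 0.0734, and those of Nr4a1 and Spi1 were 0.01 (SE 0.11) and -0.01 (SE 0.09), with no call in edgeR.

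The same contrast can be read within each library, as the log2(CPM + 1) of nonclassical minus classical monocyte-like cells, on plain CPM. For Mef2c this step was 0.78, 0.73 and 0.89 in normal lung and 0.33, -0.04 and 0.47 in AML lung, smaller in every AML library. For Klf2 it was 0.29, 0.31 and 0.07 in normal lung and -0.57, -0.15 and -0.63 in AML lung. Over the whole classes, nonclassical cells thus held more Klf2 in normal lung and classical cells more in AML lung. Between the main clusters of normal lung this reversal was not seen in every AML library. In AML lung 1, 2 and 3, nonclassical cluster 14 held a plain CPM of 953, 972 and 876. Classical cluster 12 held 867, 604 and 1104 there. For Maf, a gene higher in classical cells of all 6 libraries, the step was -1.72, -1.76 and -1.57 against -0.80, -0.998 and -0.58. Steps of Nr4a1 were positive in all 6 libraries, at 0.60, 0.69 and 0.71 in normal and 0.50, 0.80 and 0.53 in AML lung. Spi1 and Cebpb were likewise higher in nonclassical cells of all 6 libraries, while Cebpa and Cebpd were higher in classical cells of all 6. Classes come from clusters of the same cells, so these steps are a description with no test.

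**Figure D4:**
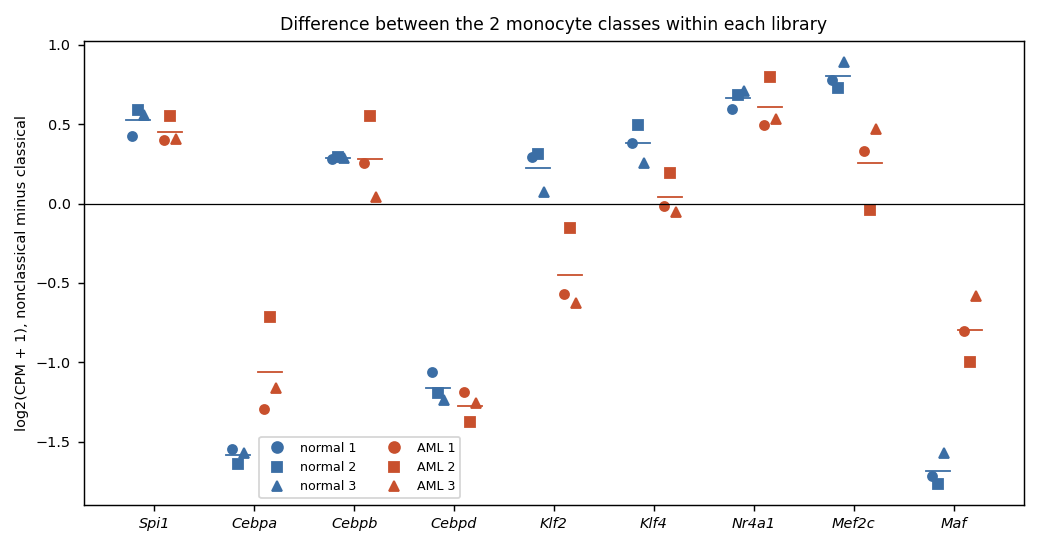
Difference in log2(CPM + 1) between nonclassical and classical monocyte-like cells within each library, 1 point per library and gene. The AML points of Klf2 lie below 0 and its normal points above, those of Mef2c and Maf lie nearer to 0 in AML lung, and those of Nr4a1 and Spi1 mix.

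Against neutrophil-like cells the AML effect on Mef2c in nonclassical monocyte-like cells was lower by -1.98 (SE 0.37, edgeR adjusted p = 0.0319), 1 of 9 genes called where 1.14% of 10655 were. That call was lost without normal lung 1 (edgeR adjusted p = 0.167), 2 (0.122) or 3 (0.168) or AML lung 2 (0.0616), and at the finer resolution (-1.87, edgeR adjusted p = 0.0583). Klf2 had a difference of -1.14 (SE 0.25, edgeR adjusted p = 0.0581). Against alveolar macrophage-like cells none of the 9 differences passed, where 1.17% of 12625 genes were called in edgeR. There 3 of the 9 had an unadjusted p under 0.05, namely Klf2 at -2.02, Klf4 at -0.51 and Nr4a1 at -0.66.

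The 4 lists of related genes are counted beside the 9 here. They were chosen with earlier results of these data known, so the counts only describe. Over all genes, 7.31% were called in nonclassical and 2.87% in classical monocyte-like cells. The shares were 0% in alveolar and 0.216% in interstitial macrophage-like cells, and 1.05% in neutrophil-like cells. Of 22 family relatives (other NR4A, C/EBP, KLF, MEF2, MAF and ETS genes), 0 of 21 tested passed in classical monocyte-like cells, and their median change was -0.30 on the log2 scale. Among nonclassical monocyte-like cells 2 rose and 2 fell of 20 tested, with a median of -0.39. Spic, the gene of an ETS factor of iron-recycling macrophages, rose from 20.1, 4.36 and 11.5 to 105, 88.7 and 70.9 CPM (log2 change 2.91, edgeR adjusted p = 0.00548). The small MAF gene Mafg rose (log2 change 0.63, edgeR adjusted p = 0.0260), and the ETS gene Fli1 was one of those that fell (log2 change -0.46, edgeR adjusted p = 0.0413). In alveolar macrophage-like, interstitial macrophage-like and neutrophil-like cells 0 relatives of 19, 20 and 19 tested passed in edgeR.

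Of 20 partner and competing factors, 2 rose and 3 fell of 14 tested in nonclassical monocyte-like cells. Runx3, a RUNX factor of lymphocytes and mononuclear phagocytes, fell from 77.4, 79.5 and 67.0 to 19.4, 17.7 and 32.3 CPM (log2 change -1.73, edgeR adjusted p = 0.00423). Irf8, a partner of PU.1 in monocyte and dendritic cell development, fell from 82.5, 111 and 99.7 to 58.7, 68.9 and 55.9 CPM (log2 change -0.68, edgeR adjusted p = 0.0287), and Irf4 fell at a level of at most 4.11 CPM (edgeR adjusted p = 0.0381). Nr1h3, the gene of the lipid-sensing receptor LXRα, rose from 24.2, 22.6 and 18.8 to 93.8, 54.9 and 52.4 CPM (log2 change 1.62, edgeR adjusted p = 0.00753). Pparg, the gene of another lipid-sensing receptor, rose from 834, 853 and 926 to 1554, 1381 and 1871 CPM (log2 change 0.88, edgeR adjusted p = 0.0112). Of 15 tested in classical monocyte-like cells 1 rose and 1 fell. Bhlhe40, a basic helix-loop-helix factor gene, rose (log2 change 1.28, edgeR adjusted p = 0.0424) and Irf4 fell (log2 change -1.23, edgeR adjusted p = 0.0349). In alveolar macrophage-like, interstitial macrophage-like and neutrophil-like cells 0 of 18, 16 and 12 tested passed in edgeR.

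Of 17 textbook targets of the 9 factors, 1 rose and 3 fell of 13 tested in nonclassical monocyte-like cells. Lyz2, the lysozyme gene under C/EBP and PU.1 control, fell from 4490, 5381 and 4877 to 2382, 1338 and 2280 CPM (log2 change -1.30, edgeR adjusted p = 0.0132). Il6ra, the interleukin 6 receptor gene, fell (log2 change -0.63, edgeR adjusted p = 0.0238), as did Thbd, the gene of the anticoagulant receptor thrombomodulin and a KLF target (log2 change -0.76, edgeR adjusted p = 0.0145). Il10, an anti-inflammatory cytokine gene that c-MAF can drive, rose from 0.726, 0.198 and 0.941 to 175, 71.2 and 46.3 CPM (edgeR adjusted p = 0.00238), while Maf itself overlapped between the groups there. Of 15 tested in classical monocyte-like cells 3 rose and 0 fell. Il10 rose from at most 1.07 to between 3.11 and 17.5 CPM (edgeR adjusted p = 0.0282), and the granule protease genes Prtn3 (log2 change 3.21, edgeR adjusted p = 0.00790) and Elane (at most 0.219 to between 3.25 and 15.8 CPM, edgeR adjusted p = 0.0162) rose as well. Both proteases are also on the immature myeloid marker list given above beside Cebpa, and whether they come from such cells was not tested. In neutrophil-like cells 1 rose of 11 tested, namely Cd14, a co-receptor for lipopolysaccharide, from 349, 368 and 377 to 1025, 1217 and 767 CPM (log2 change 1.46, edgeR adjusted p = 0.0118).

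Among the 15 dissociation and immediate early genes, Zfp36, which encodes an mRNA decay factor, fell in classical (log2 change -0.76, edgeR adjusted p = 0.0435) and nonclassical (log2 change -0.75, edgeR adjusted p = 0.0230) monocyte-like cells. Ier3, a stress response gene, rose in classical monocyte-like (log2 change 1.68, edgeR adjusted p = 0.0330) and neutrophil-like cells (log2 change 1.16, edgeR adjusted p = 0.0316). Of the 14 calls from the 4 lists in nonclassical monocyte-like cells, 0 held in cluster 14 alone. There 10 kept their direction without passing. Among these the log2 change of Spic was 0.44, of Nr1h3 0.28, of Thbd -0.20, of Irf8 -0.25 and of Lyz2 -0.57, much smaller than in the whole class. Nearer to it were Fli1 at -0.53, Zfp36 at -0.62, Il6ra at -0.51 and Mafg at 0.42. Runx3 (0.13) and Pparg (-0.09) had the other sign, and Irf4 and Il10 were below the filter. In the whole class, leaving out normal lung 1, 2 or 3 kept 5, 4 and 6 of the 14 calls. Leaving out AML lung 1, 2 or 3 kept 7, 12 and 14 of them. The lists' calls in classical monocyte-like cells numbered 7, of which 0, 1 and 1 held without normal lung 1, 2 and 3. Leaving out AML lung 1, 2 or 3 kept 4, 5 and 7 of them. Log2 changes were of like size without normal lung 1, at 3.25 for Prtn3, -0.74 for Zfp36, 1.53 for Ier3, 1.15 for Bhlhe40 and -1.13 for Irf4. In neutrophil-like cells the calls of Cd14 and Ier3 were lost without normal lung 1, 2 or 3, and that of Ier3 also without AML lung 1 or 2. Their log2 changes without single libraries stayed at 1.29 to 1.62 and 0.98 to 1.41. With the unnamed cluster counted in they were 1.10 (edgeR adjusted p = 0.334) and 0.78 (edgeR adjusted p = 0.397), and with cells named by their own marker score 1.10 and 0.81, again not called.

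For each of the 9 genes the most similar profiles were sought among 4091 genes over the 29 sums of class and library, by Pearson correlation of log2 CPM. The points share libraries and classes, so these values only describe. Mef2c was like Acer3 (r = 0.927), a ceramidase gene. Nr4a1 was most like Ceacam1 (r = 0.947) and Cep85l (r = 0.947), Klf4 most like Ccdc88a (r = 0.986) and Cd2ap (r = 0.984), and Klf2 most like Ifitm2 (r = 0.971), an interferon-induced membrane protein gene, and AB124611 (r = 0.969). Spi1 was most like Fgr (r = 0.948), a myeloid Src-family kinase gene, and Rab8a (r = 0.943). Cebpa was most like Myof (r = 0.928), Cebpb most like Klhl2 (r = 0.904) and Lsp1 (r = 0.877), and Cebpd most like Rabgef1 (r = 0.970) and Nlrp3 (r = 0.967), an inflammasome gene. Maf was most like Unc93b1 (r = 0.930) and Tns3 (r = 0.920). The lowest of these values was that of Cebpb with Lsp1.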

How the data were processed

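The authors deposited UMI counts per gene and cell barcode for 6 libraries, 3 per group, made with Cell Ranger 7.0.0 on mm10, per the submitters' processing notes, with 43913245 to 66513826 UMIs per library. The counts are not normalized. The 9 genes and all gene lists were chosen with earlier results of these data known.

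Of 73095 barcodes 71634 were kept, on minima of 200 genes and 500 UMIs and mitochondrial UMIs below 10%. Scrublet marked 1343 doublets, and in 3 libraries where its automatic threshold marked under 0.5%, the fixed threshold 0.2305 was used. The 70291 cells left were clustered with scanpy 1.11.5 and leidenalg 0.10.2 (2000 variable genes without the 9, 30 components, 15 neighbours, resolution 1), and clusters were named from marker lists where at least 3 markers were raised 2-fold. Cell types were rebuilt in this way and are not the authors' own.

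Counts were summed per library and class with at least 20 cells and tested with edgeR 4.0.16 (TMM, filterByExpr, quasi-likelihood F test, R 4.3.3), adjusted over all genes by Benjamini-Hochberg, with DESeq2 1.42.0 as an alternative. TMM factors ran from 0.963 to 1.05. Replicate libraries, each summed over all its cells, differed by more than sampling noise, and this was not checked class by class. On simulated counts with known changes, 66.3% of 2-fold changes were recovered in classical monocyte-like cells, 63.3% in nonclassical ones, 33.7% in alveolar and 4.30% in interstitial macrophage-like cells and 44.1% in neutrophil-like cells. False calls there were 10 of 168 calls in classical and 22 of 178 in nonclassical monocyte-like cells. They were 5 of 106 in alveolar and 2 of 50 in interstitial macrophage-like cells, and 18 of 150 in neutrophil-like cells.

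Both groups carry replicate numbers 1 to 3. Deviations of same-numbered libraries correlated at 0.166 to 0.28 in nonclassical monocyte-like cells, all above 0.1, so the blocked fit is given beside results it changes there. In the other classes correlations ran from -0.27 to 0.507. Nothing in the labels says that a number marks a shared day or animal.

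Named were all 9 genes in every class, every gene of a context list past the threshold (up to 8 per list and class), and the 2 most similar profiles per gene among genes with a mean log2 CPM of at least 5. Confidence levels are 95%. Alternatives were DESeq2, other scaling, no filter, the block, each library left out, a higher UMI minimum, resolution 2, doublets kept, the 9 genes allowed among the variable genes, and cells named by their own marker score. Single clusters and the unnamed cluster were added after the data were seen. A few genes that these rules name are not reported here.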

Additional observations from a re-analysis of the deposited data

Results flagged for a closer look

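In all, 4 differences of the AML effect between classes passed the test of the difference itself (edgeR class-by-group term, Benjamini-Hochberg over all genes), each over 6 libraries. Between nonclassical and classical monocyte-like cells these were Klf2 at -0.61 (adjusted p = 0.0210), Mef2c at -0.49 (adjusted p = 0.0425) and Maf at 0.95 (adjusted p = 0.00332), all in edgeR. Between nonclassical monocyte-like and neutrophil-like cells it was Mef2c at -1.98 (edgeR adjusted p = 0.0319). In the within-library steps from classical to nonclassical cells, all 3 AML libraries lay on one side of all 3 normal libraries for Klf2, Mef2c and Maf, and likewise for Klf4 and Cebpa, whose differences did not pass the test. These steps are of whole classes, whose clusters the groups fill unequally. No group of libraries was large enough for a check of single outlying libraries.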

How the results depend on the processing

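Over the 9 genes, 960 settings of 72 results gave 853 with the same direction and side of the threshold, 19 that lost a call, 43 that gained one and 45 that changed sign. Of 361 settings of 23 results for other list genes, 97 lost the call and 2 changed sign. Mef2c in nonclassical monocyte-like cells kept its call in every alternative but cluster 14 alone, and in classical ones in all but 3 of 16 (without normal lung 1 or 2, and with cells named by their own marker score, edgeR adjusted p = 0.0553). The cause of none of these shifts was tested.

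Counts of genes past the threshold were 303, 772, 0, 17 and 72 in classical monocyte-like, nonclassical monocyte-like, alveolar macrophage-like, interstitial macrophage-like and neutrophil-like cells. DESeq2 called 620 in the first, 132 in the third, 145 in the fourth and 251 in the last. Without the filter on low counts edgeR called 1274, 1771, 547 and 596 in all but alveolar macrophage-like cells. Naming each cell by its own marker score gave 83, 486, 6 and 0 (1012 at an unadjusted p under 0.05) in the same 4 classes. Keeping doublets gave 29 in interstitial macrophage-like cells, allowing the 9 genes among the variable genes gave 121 in neutrophil-like cells, cluster 14 alone gave 85 in nonclassical monocyte-like cells, and counting in the unnamed cluster gave 0 in neutrophil-like cells (1101 unadjusted). For the differences between classes no filter gave 955 against classical, 546 against alveolar and 525 against neutrophil-like cells, and resolution 2 gave 80 for the last. Leaving out each library in turn gave 0 (without normal lung 1, 1544 unadjusted) to 1134 (without AML lung 3) in classical, 163 to 1864 in nonclassical, 0 to 1 in alveolar, 0 to 29 in interstitial and 0 (without normal lung 2, 861 unadjusted) to 255 in neutrophil-like cells. The 3 differences gave 221 to 825, 4 to 448 and 15 to 392, in the same order. Where 1 library is left in a group, it is taken to vary like the others.

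Blocking on the replicate number gave edgeR calls of 337, 1033, 23, 83 and 93 genes in the 5 classes, the fourth from 4 libraries only. Beside Spi1 and Cebpa in nonclassical monocyte-like cells, the block brought past the threshold Cebpa (-1.63, adjusted p = 0.0397) and Maf (-0.81, adjusted p = 0.0359) in classical monocyte-like and Klf2 (0.87, adjusted p = 0.0283) in neutrophil-like cells in edgeR, where pairing is not established. It lost Bhlhe40 in classical monocyte-like cells (edgeR adjusted p = 0.0569) and changed no other call among the named genes.

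Changes of sign were as follows, all in log2 change. In classical monocyte-like cells Cebpd was 0.094 at resolution 2, and without single libraries Nr4a1 ran from -0.16 to 0.063, Cebpb from -0.22 to 0.10 and Cebpd from -0.39 to 0.086. In nonclassical monocyte-like cells Maf was -0.19 at resolution 2 and -0.0060 by own marker score, and without single libraries Nr4a1 ran from -0.18 to 0.029, Maf from -0.021 to 0.31, Cebpb from -0.21 to 0.0052 and Cebpd from -0.44 to 0.029. Cluster 14 alone gave Cebpd 0.41, Klf2 0.28, Klf4 0.24, Nr4a1 0.0067, Maf -0.62, Runx3 0.13 and Pparg -0.093. In alveolar macrophage-like cells Cebpd was -0.014 at resolution 2 and -0.049 with the 9 genes allowed among variable genes, and without single libraries Cebpd ran from -0.16 to 0.27 and Mef2c from -0.56 to 2.87. In interstitial macrophage-like cells the ranges were -0.82 to 0.54 for Klf4, -0.44 to 2.46 for Klf2, -0.13 to 0.74 for Nr4a1 and -1.01 to 0.12 for Cebpd. In neutrophil-like cells Cebpd was -0.00079 without the filter, -0.048 at 1000 UMIs per cell and -0.38 by own marker score, where Cebpa was 0.11. With the unnamed cluster Cebpb was -0.016, Cebpd -0.43 and Mef2c -0.087. Without single libraries Cebpd ran from -0.091 to 0.13, Maf from -0.79 to 0.040 and Klf4 from -0.34 to 1.53. Of the differences against classical cells, Nr4a1 was -0.012 under RLE scaling, Spi1 was 0.024 without the filter and 0.065 at resolution 2, and without single libraries Nr4a1 ran from -0.10 to 0.042, Spi1 from -0.084 to 0.016 and Cebpb from -0.087 to 0.16. Against neutrophil-like cells Cebpa ran from -0.20 to 0.52 and Klf4 from -1.50 to 0.36. Shallow cells of AML lung 3 and the rare interstitial class limit what could be detected.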
